A study of Homo sapiens with 7 samples.

Results

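The 136 genes described here are the solute carrier (SLC) genes of a human embryonic stem cell line whose mean level reached at least 5 TPM over 7 long-read libraries. They were taken by symbol, SLC followed by a digit, and selected on that mean level, out of 268 listed SLC genes and among 7878 genes of any kind that reached the same level. The study directed Cas13d, an RNA-guided nuclease that cleaves RNA, at single isoforms of RBFOX2, a splicing regulator, and then counted full-length cDNA reads per isoform. All cultures were HUES66, an established embryonic stem cell line, which the labels tie to piggyBac, a transposon system for inserting transgenes. Every culture, the control included, had received 1 µg/ml doxycycline and was taken at 24 h. The control carries the genotype label WT, and the other 6 carry the label RBFOX2 isoform KD with an RBFOX2 id each: 178147 for G3, 178149 for G5, 178136 for G11, 178135 for G12, 178145 for G13 and 178146 for G14. They are called the G libraries here. The labels do not say which isoform an id stands for. Each group is 1 library, so no difference below has a replicate check, no p-value was computed, and the 6 comparisons with the control share that 1 library.

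Solute carriers are membrane proteins that move small molecules across the plasma membrane and across the membranes of organelles, either down a gradient or coupled to the movement of another ion or solute. Families are numbered by sequence and often share substrates: SLC1, SLC6, SLC7 and SLC38 hold amino acid transporters, SLC2 hexose transporters and SLC16 monocarboxylate transporters. Most SLC25 members are carriers of the inner mitochondrial membrane. SLC30 and SLC39 hold zinc transporters, and SLC35 carriers of nucleotide sugars in the Golgi. Pluripotent stem cells are known for high glucose uptake and for a strong demand for glutamine and essential amino acids. SLC4A1AP, a nuclear protein, and SLC7A6OS, a gene opposite SLC7A6, meet the rule by symbol but encode no known transporter.

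The libraries held between 16801846 reads in the control and 26678530 in G12, and the members took between 1.59% and 1.74% of the listed reads, or 280332 to 457190 reads. A level in TPM is the reads of a gene scaled to the library total, without a correction for length, because each read stands for 1 cDNA molecule. RBFOX2 itself was at 107.4 TPM in the control, with G3 at 42.1, G5 at 96.8, G11 at 82.9, G12 at 88.5, G13 at 55.9 and G14 at 105.8. Of 8 pluripotency markers 7 were listed, with a summed level between 1596 and 2028 TPM. They did not all move the same way, and their values are given further on. Markers of neural, mesodermal and endodermal cells summed to at most 0.24, 0.07 and 0.18 TPM in any library. In bulk RNA, fewer cells of a kind and less RNA per cell cannot be told apart.

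Mitochondrial carriers supplied the largest share of SLC transcripts. The 28 members of this family made up 48.8% of the summed mean level of the members, the 23 amino acid and peptide transporters 12.6%, the 19 zinc and other metal transporters 10.8% and the 6 sugar transporters 10.5%. The 10 most abundant genes held 60.6% of the summed level and SLC25A5 alone 25.4%. There were 27 members with a mean of at least 100 TPM and 107 with at least 10 TPM. Just inside the threshold of 5 TPM lay SLC6A9 (5.13 TPM), SLC51A (5.50 TPM) and SLC30A1 (5.65 TPM), and just outside it SLC25A51 (4.83 TPM), SLC7A11 (4.59 TPM) and SLC1A6 (4.58 TPM).

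SLC25A5, an ADP/ATP carrier that exchanges the nucleotides between mitochondrion and cytosol, was at 4521 TPM in the control, with G3 at 3618, G5 at 3302, G11 at 3921, G12 at 5378, G13 at 5213 and G14 at 3330. It was the most abundant member in every library and lay above the control in G12 and G13 only. Its level was 119.0% of the control in G12 (95% interval 117.9 to 120.0, counting error only) and 73.0% in G5 (72.3 to 73.8). Reads of SLC25A5 may be shared with its processed pseudogenes. The related carrier SLC25A6 had 465.5 TPM in the control, with G3 at 306.3, G5 at 285.9, G11 at 289.7, G12 at 339.6, G13 at 351.3 and G14 at 208.8, and SLC25A4, the ADP/ATP carrier typical of muscle and heart, 273.9, 270.3, 185.5, 157.0, 166.0, 154.3 and 106.2 TPM in the same order. Both were highest in the control and lowest in G14, at 44.9% (43.2 to 46.6) and 38.8% (36.8 to 40.8) of the control. With a trend of length and GC content over all genes removed, the log2 ratio in G14 was 0.00 for SLC25A6, in place of -1.15, and -1.54 for SLC25A4, in place of -1.36, and in G13 that of SLC25A6 was 0.99, in place of -0.41. They were named after their values were seen.

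**Figure D1:**
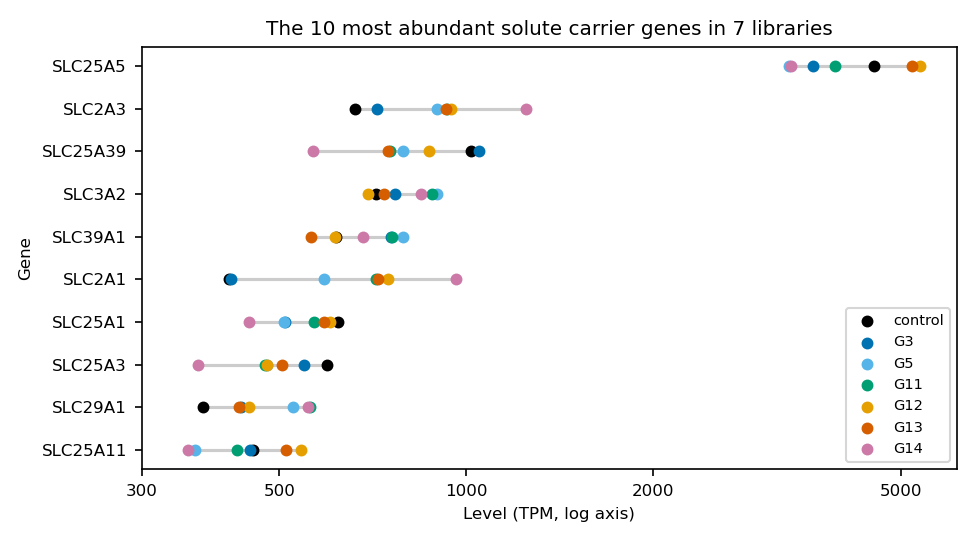
Level in TPM on a log axis of the 10 most abundant solute carrier genes, 1 point per library and a grey line from the lowest to the highest. SLC25A5 lay between 3302 and 5378 TPM, and SLC2A1 spread from 414.0 TPM in the control to 963.6 TPM in G14.

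SLC25A39, a carrier linked to mitochondrial glutathione import, was the most abundant mitochondrial carrier after SLC25A5. Its level was 1017 TPM in the control, with G3 at 1046, G5 at 791.3, G11 at 752.9, G12 at 870.7, G13 at 746.6 and G14 at 566.1, or 55.6% of the control in G14 (54.3 to 57.0). The citrate carrier SLC25A1 ranged from 447.3 TPM in G14 to 621.9 in the control, the oxoglutarate/malate carrier SLC25A11 from 356.8 TPM in G14 to 540.9 in G12, and the phosphate carrier SLC25A3 from 370.4 TPM in G14 to 597.2 in the control. Of the 28 mitochondrial carriers, none was at least 2-fold lower in G3, G5 or G11, beside 5.14%, 10.1% and 10.4% of all genes. At least 2-fold lower were 2 in G12 (7.14% of the class, 8.8% of all genes), 2 in G13 (7.14%, 14.6% of all genes) and 3 in G14 (10.7%, 18.9% of all genes). None was 2-fold higher in any G library, beside 0.533% (G5) to 3.97% (G14) of all genes. SLC25A22, a glutamate carrier, had the widest range of the class and is described with the genes that varied most. SLC25A36, a pyrimidine nucleotide carrier, stood at the other end, between 84.8 TPM in G5 and 102.6 in G3.

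SLC25A3 has a pair of mutually exclusive exons, of which 3A is known from heart and skeletal muscle and 3B from most other tissues. Both are coding throughout in the transcripts that contain them and lie on the plus strand of GRCh38 (GENCODE 29). They are shown because the reads separate them almost completely. Capitals mark the bases at which they differ in a global alignment, in which 85 of 127 columns (66.9%) were identical.
Exon 3A of SLC25A3, chr12:98595433-98595557: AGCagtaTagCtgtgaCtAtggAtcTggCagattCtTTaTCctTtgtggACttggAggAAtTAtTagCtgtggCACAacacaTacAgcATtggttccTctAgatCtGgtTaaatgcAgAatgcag
Exon 3B of SLC25A3, chr12:98595727-98595848: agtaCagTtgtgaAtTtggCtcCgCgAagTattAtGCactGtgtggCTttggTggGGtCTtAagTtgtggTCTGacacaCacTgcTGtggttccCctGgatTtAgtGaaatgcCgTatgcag

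Among annotated isoforms that span the site, which held 98.9% to 99.4% of the SLC25A3 reads, exon 3A was in 2 of 9927 reads in the control, 0 of 9708 in G3, 7 of 12048 in G5, 6 of 9807 in G11, 7 of 12659 in G12, 1 of 11415 in G13 and 5 of 7695 in G14. The share was at most 0.0650% (0.0278 to 0.152, Wilson interval) and was reached in G14. Exon 3B was in at least 99.9% of these reads in every library. Transcript IDs were matched to GENCODE 29 without their version, so exons of a revised model could differ.

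Among amino acid transporters the partners of 1 complex behaved differently. SLC3A2 (CD98 heavy chain), the glycoprotein that carries light chains such as SLC7A5 to the plasma membrane, was at 715.0 TPM in the control, with G3 at 766.9, G5 at 896.6, G11 at 879.1, G12 at 695.5, G13 at 737.4 and G14 at 843.5. All 7 values lay within 0.37 on the log2 scale. SLC7A5 (LAT1), the light chain that exchanges large neutral amino acids such as leucine, was at 160.3 TPM in the control, with G3 at 315.1, G5 at 162.2, G11 at 41.5, G12 at 25.4, G13 at 6.65 and G14 at 15.5. SLC7A5 was thus highest in G3, near the control in G5 and lower in the other 4. Its level was 196.6% of the control in G3 (187.8 to 206.0) and 4.16% in G13 (3.51 to 4.90), from 2692 reads in the control, 5623 in G3 and 152 in G13. The log2 range of 5.46 was the largest of all members with a mean of at least 10 TPM.

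The isoforms of SLC3A2 were used in like shares in the 7 libraries while the light chain varied. Starts in the upstream first exon, counted over all listed isoforms, made up 68.2% of SLC3A2 reads in G13 and 72.3% in G14, with the control at 70.2% (69.4 to 71.0). The usage distance to the control, the summed gain in share over the isoforms that gained, runs from 0 to 1 and was between 0.020 and 0.034 for SLC3A2.

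The other amino acid carriers lay on both sides of the control. SLC1A5 (ASCT2), an exchanger that brings glutamine into the cell, was at 297.9 TPM in the control, with G3 at 419.3, G5 at 312.6, G11 at 172.2, G12 at 110.8, G13 at 78.6 and G14 at 96.4. G3 was the highest library, and the 4 libraries from G11 to G14 lay below the rest, down to 26.4% of the control in G13 (25.0 to 27.9). SLC38A1 (SNAT1), a sodium-coupled importer of glutamine, ran the other way: 201.9 TPM in the control, with G3 at 212.8, G5 at 299.9, G11 at 323.4, G12 at 308.9, G13 at 329.6 and G14 at 423.7. It was 209.9% of the control in G14 (201.7 to 218.5). Its close relative SLC38A2 (SNAT2), named after its values were seen, was at 105.5 TPM in the control, with G3 at 137.9, G5 at 123.4, G11 at 85.9, G12 at 64.1, G13 at 59.4 and G14 at 70.5, which orders the libraries as SLC1A5 does at both ends. SLC38A10, a transporter of glutamine and related amino acids in intracellular membranes, had 25.3 TPM in the control, with G3 at 38.2, G5 at 28.5, G11 at 6.88, G12 at 4.63, G13 at 1.14 and G14 at 3.59. In G13 this was 26 reads against 424 in the control, or 4.52% (2.92 to 6.72). Of the 23 members of the class, at least 2-fold lower than the control were 2 in G11 (8.70% of the class, 10.4% of all genes), 4 in G12 (17.4%, 8.8% of all genes), 7 in G13 (30.4%, 14.6% of all genes) and also 4 in G14 (17.4%, 18.9% of all genes). In G14 1 member, SLC38A1, was 2-fold higher (4.35% of the class, 3.97% of all genes).

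**Figure D2:**
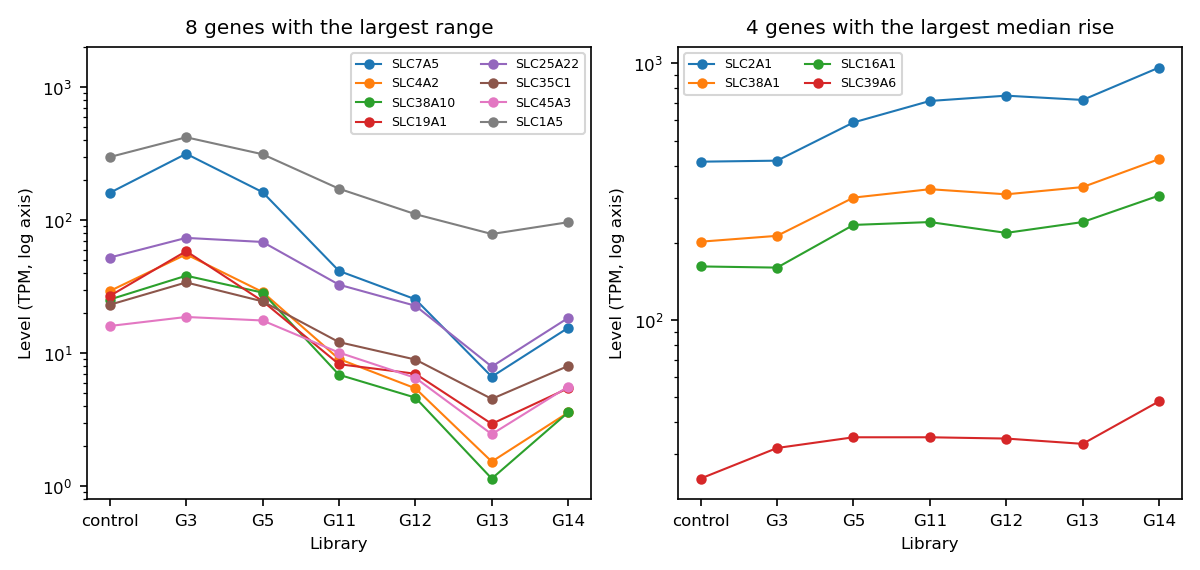
Level in TPM on a log axis in each library of the 8 members with the largest range and of the 4 with the largest median rise over the G libraries, with lines that only join the points of a gene. All 8 genes on the left are highest in G3 and lowest in G13, and SLC7A5 spans 6.65 to 315.1 TPM. All 4 genes on the right are highest in G14.

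The 2 abundant glucose transporters were higher than the control in most G libraries. SLC2A1 (GLUT1), the widespread glucose uniporter, was at 414.0 TPM in the control, with G3 at 417.8, G5 at 588.8, G11 at 713.9, G12 at 748.7, G13 at 720.5 and G14 at 963.6. The control and G3 lay together, at a ratio of 100.9% (97.7 to 104.3), and the other 5 lay above them, up to 232.8% in G14 (226.5 to 239.3). SLC2A3 (GLUT3), a glucose transporter of high affinity, was at 660.5 TPM in the control, with G3 at 717.9, G5 at 896.3, G11 at 929.1, G12 at 945.0, G13 at 927.8 and G14 at 1248. It was again lowest in the control and highest in G14, at 189.0% (184.8 to 193.2). Reads of SLC2A3 may be shared with its near copy SLC2A14. These 2 genes carried the class: the summed level of the 6 sugar transporters was 1309 TPM in the control and 2321 TPM in G14, while the median log2 ratio of the 6 was -0.84 in G14. The other 4 were lower in G14, SLC50A1 at 81.3 TPM against 165.8 in the control, SLC2A8 at 17.5 against 45.6, SLC45A3 at 5.60 against 16.0 and SLC45A1 at 4.26 against 6.96.

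Monocarboxylate and zinc transporters included further genes with their highest level in G14. SLC16A1 (MCT1), which moves lactate and pyruvate with a proton, was at 161.7 TPM in the control, with G3 at 160.0, G5 at 234.7, G11 at 240.8, G12 at 218.5, G13 at 240.8 and G14 at 305.5. Control and G3 formed the low pair again, and G14 reached 188.9% of the control (180.6 to 197.7). SLC16A3 (MCT4), the lactate exporter of glycolytic cells, ranged from 72.6 TPM in the control to 132.6 in G14. SLC39A1 (ZIP1), a zinc importer and the most abundant metal transporter, ranged from 561.9 TPM in G13 to 789.3 in G5, and SLC39A6 (ZIP6), a zinc importer of the same family, was at 24.1 TPM in the control, with G3 at 31.7, G5 at 34.9, G11 at 34.9, G12 at 34.5, G13 at 32.9 and G14 at 48.2. Among the 19 metal transporters none was 2-fold higher in any G library, beside 0.533% (G5) to 3.97% (G14) of all genes. None was 2-fold lower in G3, G5, G11, G12 or G14, beside 5.14%, 10.1%, 10.4%, 8.8% and 18.9% of all genes. In G13, 2 were 2-fold lower (10.5% of the class, 14.6% of all genes). These were SLC39A13, at 12.2 TPM against 29.0, and the zinc exporter SLC30A1, at 2.94 TPM against 7.86.

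Ion, folate and sugar-nucleotide carriers were among the remaining genes with wide ranges. SLC4A2 (AE2), a chloride/bicarbonate exchanger, was at 29.3 TPM in the control, with G3 at 55.3, G5 at 28.8, G11 at 9.04, G12 at 5.44, G13 at 1.53 and G14 at 3.58, and 35 reads in G13 stood against 491 in the control, or 5.25% (3.62 to 7.41). SLC19A1, the reduced folate carrier, was at 26.9 TPM in the control, with G3 at 58.4, G5 at 24.6, G11 at 8.26, G12 at 7.0, G13 at 2.94 and G14 at 5.45. It was 217.0% of the control in G3 (194.1 to 242.9) and 10.9% in G13 (8.32 to 14.1). Both were highest in G3 and low from G11 to G14. SLC25A22 had 52.3 TPM in the control, with G3 at 73.5, G5 at 68.5, G11 at 32.7, G12 at 22.7, G13 at 7.92 and G14 at 18.4. SLC35C1, the GDP-fucose carrier of the Golgi, spanned 4.53 TPM in G13 to 34.0 in G3, and SLC45A3, a gene of the sugar/proton symporter family, 2.46 TPM in G13 to 18.7 in G3. SLC52A2, a riboflavin transporter and the most abundant vitamin carrier, was at 156.2 TPM in the control, 229.7 in G3 and 60.9 in G13.

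Further members of these and other classes had wide as well as narrow ranges. SLC29A1 (ENT1), the equilibrative nucleoside transporter, was at 376.4 TPM in the control, with G3 at 433.1, G5 at 526.2, G11 at 560.9, G12 at 446.0, G13 at 430.3 and G14 at 555.8, lowest in the control and within 0.57 on the log2 scale. SLC29A2 (ENT2), its less abundant relative, went from 39.2 TPM in G3 to 7.53 in G13. SLC35A4, a relative of the nucleotide sugar carriers, ranged from 128.2 TPM in G13 to 195.8 in G11 and SLC26A6, an anion exchanger, from 25.7 TPM in G13 to 46.0 in G5. The smallest ranges among members with at least 10 TPM were those of SLC35E3, between 16.9 and 18.9 TPM, of SLC35A3, the carrier of UDP-N-acetylglucosamine, between 35.4 and 41.6 TPM, and of SLC25A36. Over all 136 members, 85 (62.5%) stayed within 2-fold over the 7 libraries, against 60.4% of all genes compared, and 13 (9.56%) spanned at least 4-fold, against 8.53%. The median log2 range was 0.87 for the members and 0.84 for all genes.

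Counts of members at least 2-fold from the control are set here beside the share of all 7878 genes, on the log2(TPM + 0.5) scale, which understates the ratio of weak genes. In G3 1 member, SLC19A1, was 2-fold higher (0.735% of members, 1.89% of all genes) and none was 2-fold lower (5.14% of all genes). In G5 no member was 2-fold higher (0.533% of all genes) and none was 2-fold lower (10.1%). In G11 no member was higher (0.724%) and 5 were lower (3.68% of members, 10.4% of all genes). In G12 no member was higher (0.546%) and 16 were lower (11.8% of members, 8.8% of all genes). In G13 no member was higher (1.04%) and 29 were lower (21.3% of members, 14.6% of all genes). In G14 3 members were higher (2.21% of members, 3.97% of all genes) and 19 were lower (14% of members, 18.9% of all genes). The 3 were SLC2A1, SLC38A1 and SLC4A8, a sodium-coupled bicarbonate transporter. The share of lower members was therefore below that of all genes in G3, G5, G11 and G14 and above it in G12 and G13, and whether these gaps exceed the spread between cultures could not be tested with 1 library per group.

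The median log2 ratio of the members, with the median of all genes in parentheses, was 0.17 in G3 (0.12) and 0.20 in G5 (0.14), and it was below 0 in G11 at -0.09 (-0.04), G12 at -0.20 (-0.16), G13 at -0.34 (-0.22) and G14 at -0.25 (-0.10). Under scaling by the median of ratios, log2 ratios shifted upward by about 0.14 in G12, 0.16 in G13 and 0.12 in G14. In the others the shift was at most 0.05 either way. Weak genes shifted less, because the 0.5 TPM was added after scaling. Class medians in G13 were lowest for sugar transporters, at -0.82, and for carriers of vitamins, choline and lipids, at -0.69, and that of mitochondrial carriers was -0.13. The median of ratios scaling gave -0.67, -0.53 and 0.03 for these 3 classes, and removal of the trend of length and GC content gave 0.00, 0.19 and 0.01. The 2 members outside the substrate classes, SLC4A1AP and SLC7A6OS, had a median of 0.18. Carriers of inorganic ions had medians of -0.36 (G11), -0.58 (G12), -0.67 (G13) and -0.38 (G14).

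**Figure D3:**
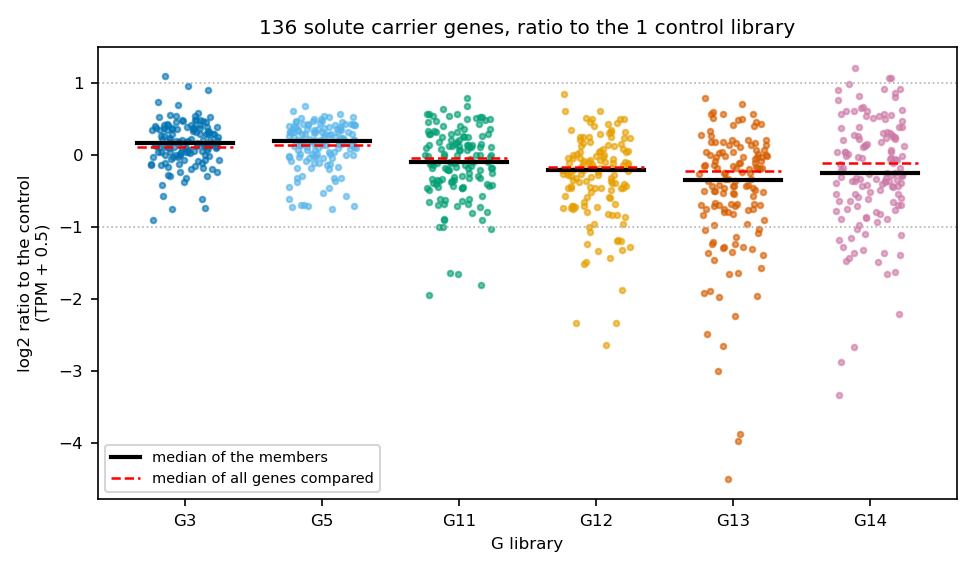
log2 ratio to the control of each of the 136 members in each G library, with the median of the members as a black line, the median of all genes compared as a dashed red line and dotted lines at 2-fold. The lowest points in G11, G12, G13 and G14 are SLC7A5, at -1.94, -2.64, -4.49 and -3.33.

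A second count did not use the control as its reference. It asked in how many members a library lay outside the range of the other 6 and at least 2-fold from their median. The control met this for 1 member, SLC20A1 (0.735% of members, 7.32% of all genes). G3 met it for 17 (12.5% of members, 9.72% of all genes) and G13 for 22 (16.2% of members, 8.04% of all genes). G5, G11, G12 and G14 met it for none, beside 0.0762%, 0.0762%, 0.114% and 1.1% of all genes. G3 was the highest library for 54 members (39.7%, against 30.4% of all genes) and G13 the lowest for 65 (47.8%, against 30.8%). In 43 members (31.6%) both held, against 20.2% of all genes. Another 17 members (12.5%, against 15.8% of all genes) were lowest in the control and highest in G14, among them SLC2A1, SLC2A3, SLC38A1, SLC16A3, SLC39A6 and the choline transporter SLC44A1. SLC20A1, a sodium/phosphate importer, was at 10.8 TPM in the control, with G3 at 6.22, G5 at 6.33, G11 at 5.05, G12 at 4.13, G13 at 3.95 and G14 at 4.49, so that all 6 G libraries lay below the control.

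The members' base composition moved with these ratios. The mean isoform length of a member, weighted by TPM, had a median of 2975 nt against 2604 nt for all genes, and the median GC content was 51.6% against 47.9%. All genes were split by GC content at 43.8% and 53.4% into 3 classes of equal size, and 35 members lay in the lowest, 42 in the middle and 58 in the highest class. In G13 the median log2 ratio of members was -0.01 in the lowest, -0.17 in the middle and -0.73 in the highest class, and that of all genes 0.06, -0.14 and -0.69. Of the 29 members 2-fold lower in G13, 24 were in the highest class, which held 58 of the 135 members with a GC value. How all genes 2-fold lower in G13 split over the 3 classes is not given here. In G3 the order was reversed, with 0.11, 0.13 and 0.25 for members and 0.10, 0.11 and 0.18 for all genes. Length and GC content together took up 14.2% (G11) to 48.8% (G13) of the variance, over all genes, of a library's deviation from the gene mean. With that trend removed, the members' medians had G3 at 0.02, G5 at 0.10, G11 at 0.08, G12 at 0.01, G13 at -0.01 and G14 at 0.07. At least 4-fold was then spanned by 3 members, where 13 had before: SLC7A5 with a log2 range of 3.06, SLC16A3 with 2.19 and SLC4A2 with 2.08. SLC16A3 was not among the 13, as its log2 range was 0.86 before the removal. The part of length, GC content, RNA quality and library preparation in the ratios was not tested.

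**Figure D4:**
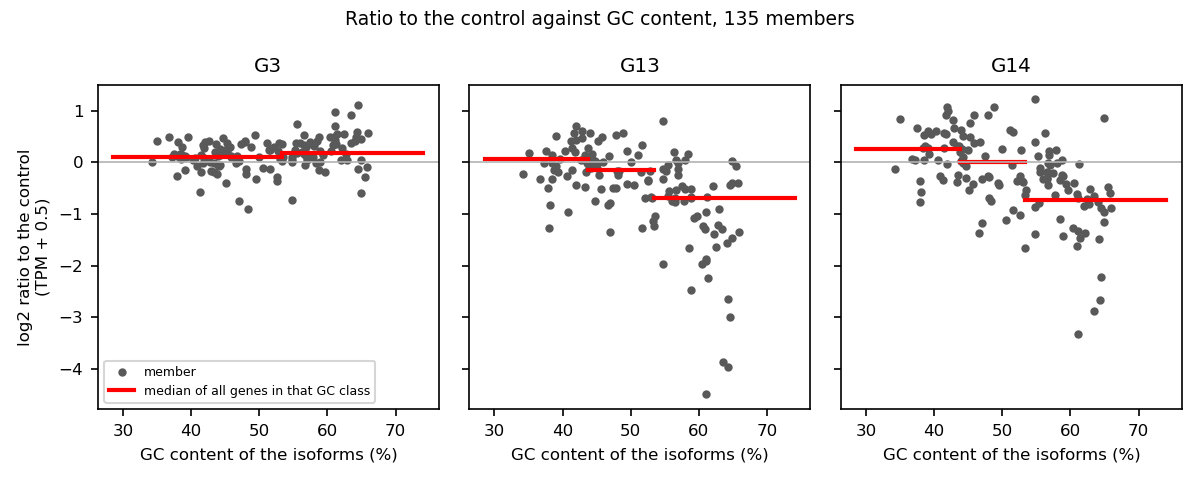
log2 ratio to the control against the GC content of the expressed isoforms (%) for the 135 members with both, in G3, G13 and G14, with red lines at the median of all genes in each GC class. In G13 the highest class of all genes has a median of -0.69 and the lowest 0.06.

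Stretches of coding sequence make the contrast in composition visible. For 4 members that were low in G13 and for 2 that were high in G14, the 60 coding bases with the most G and C inside 1 exon of the most used annotated isoform are given 5′ to 3′ on the gene's strand (GRCh38, GENCODE 29). The first 4 were low in G13. SLC2A1, which had the largest median rise of all members, is not shown.
SLC7A5 chr16:87869354-87869413 minus strand: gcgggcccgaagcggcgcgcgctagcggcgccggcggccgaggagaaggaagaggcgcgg
SLC4A2 chr7:151066544-151066603 plus strand: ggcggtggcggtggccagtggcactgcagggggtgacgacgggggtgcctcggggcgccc
SLC38A10 chr17:81246307-81246366 minus strand: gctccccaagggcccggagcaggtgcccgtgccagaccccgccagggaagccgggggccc
SLC19A1 chr21:45516015-45516074 minus strand: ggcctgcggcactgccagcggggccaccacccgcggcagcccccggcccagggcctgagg
SLC38A1 chr12:46188998-46189057 minus strand: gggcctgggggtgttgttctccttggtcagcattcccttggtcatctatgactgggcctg
SLC16A1 chr1:112929247-112929306 minus strand: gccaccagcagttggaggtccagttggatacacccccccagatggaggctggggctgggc
G or C filled 49 of the 60 bases in SLC7A5, 48 in SLC4A2, 48 in SLC38A10 and 50 in SLC19A1, against 35 in SLC38A1 and 40 in SLC16A1. Over the whole isoform the GC content was 61.1%, 63.5%, 64.3% and 64.4% for the first 4 and 42.3% and 41.7% for the last 2. Composition did not order all members: SLC25A1 has 65.5% GC and lay between 447.3 and 621.9 TPM, SLC2A1 has 54.8%, in the highest GC class, and was highest in G14, SLC16A3 has 64.9% and was highest in G14, and SLC38A2 has 38.1% and was lower in G13. After the trend was removed, the median log2 ratio over the G libraries was -1.49 for SLC7A5, -1.05 for SLC4A2, -1.05 for SLC38A10, -0.70 for SLC38A2 and -1.22 for SLC20A1, and 1.09 for SLC2A1, 1.24 for SLC16A3 and 0.50 for SLC38A1.

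Genes of other cell types were looked at beside these members. Of 3 fibroblast markers, COL1A1 and COL1A2 were listed and DCN was not, and the summed level of the 2 was 27.8 TPM in the control, with G3 at 38.5, G5 at 30.0, G11 at 14.4, G12 at 9.41, G13 at 4.20 and G14 at 7.84. The sum has the order of libraries seen for SLC7A5 and SLC1A5, but the 2 genes differ: COL1A1, with a GC content of 61.1%, was highest in G3, at 30.3 TPM against 16.4 in the control, and COL1A2, with 54.8%, was at 8.25 TPM in G3 against 11.3 in the control and highest in G5, at 13.3 TPM. Among the pluripotency markers, POU5F1 was at 915.5 TPM in the control against 377.5 to 588.3 TPM elsewhere, and NANOG at 10.1 against 3.51 to 5.57. DPPA4 was at 744.8 TPM in the control against 766.0 to 1002 TPM elsewhere, L1TD1 at 18.2 against 24.9 to 41.0 and TDGF1 at 37.6 against 43.8 to 59.7. LIN28A, at 169.8 TPM in the control against 73.2 to 182.5, and ZFP42, at 131.8 against 108.0 to 172.0, lay on both sides. The part of these markers in the ratios of the members was not tested.

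Isoform usage was compared for the 133 members with at least 50 reads in every library. A usage distance to the control of at least 0.2 was found for 10 members in G3 (7.52% of members, 11% of genes), 8 in G5 (6.02%, 10.6% of genes), 17 in G11 (12.8%, 12% of genes), 17 in G12 (12.8%, 12.2% of genes), 27 in G13 (20.3%, 15.7% of genes) and 27 in G14 (20.3%, 15.7% of genes). The median distances of members had G3 at 0.075, G5 at 0.083, G11 at 0.080, G12 at 0.093, G13 at 0.101 and G14 at 0.096, against 0.066, 0.064, 0.068, 0.068, 0.076 and 0.079 for all genes. Every listed isoform has at least 1 control read, so rare isoforms add to each distance from the control. Few of these distances rest on common isoforms: counting only isoforms with a mean of at least 1 TPM, 0 members passed in G3 and G5, 1 each in G11 and G12, 5 in G13 and 6 in G14. The share of all genes under this limit is not given here, so the drop cannot be called particular to the members.

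Of the members with over 1000 reads in every library, SLC4A1AP had the largest median distance, 0.276 on at least 1254 reads, and SLC1A5 the largest in a single library, 0.396 in G13 on at least 1793 reads. SLC1A5 was at 0.208 in G14 and at most 0.189 elsewhere, and its read starts are given further on. SLC4A1AP reached 0.346, in G13. The level of SLC4A1AP was 74.7 TPM in the control, with G3 at 100.0, G5 at 100.4, G11 at 107.0, G12 at 102.5, G13 at 107.2 and G14 at 140.4. Reads that ran to the distal 3′ end made up 49.6% in the control (46.8 to 52.4), with G3 at 49.8%, G5 at 68.8%, G11 at 75.3%, G12 at 76.5%, G13 at 82.4% and G14 at 81.7% (80.3 to 83.1). At the distal end control and G3 again formed 1 pair, and their intervals there do not overlap those of the other 5. Reads at a middle end made up 35.6% in the control (33.0 to 38.3), 42.4% in G3 (40.2 to 44.7) and 15.6% in G13. Those at an early end made up 12.4% in the control (10.7 to 14.3), 6.39% in G3 (5.35 to 7.62) and 0.510% in G14. At the middle and early ends the intervals of control and G3 do not overlap.

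**Figure D5:**
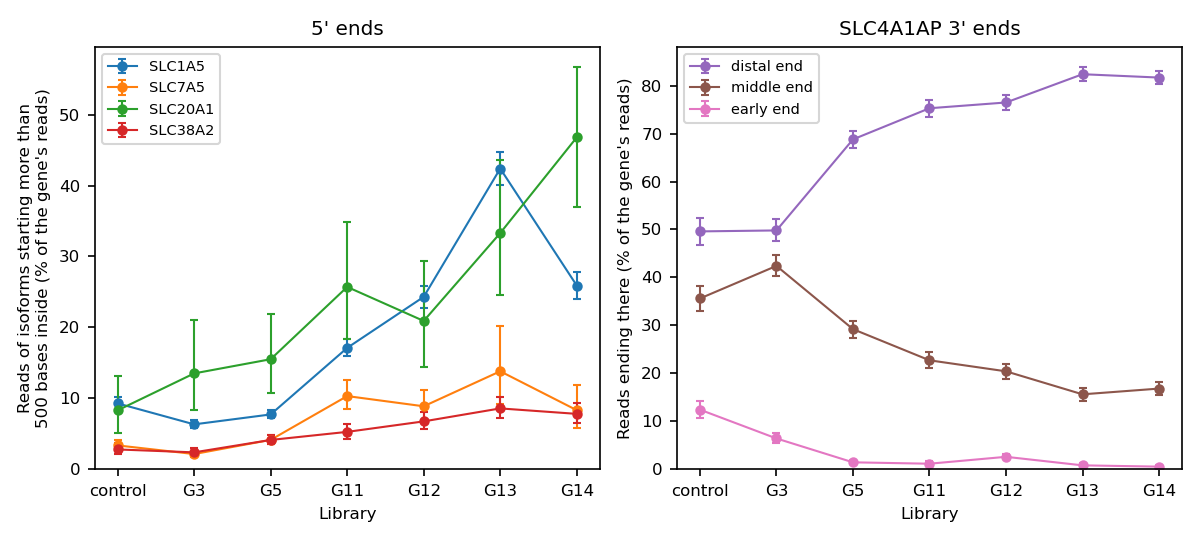
Left, reads of isoforms that start more than 500 bases inside the start of the most used isoform, as a percentage of the gene's reads, for SLC1A5, SLC7A5, SLC20A1 and SLC38A2, and right, reads at each of 3 ends of SLC4A1AP, both by library with Wilson 95% intervals. SLC1A5 goes from 6.31% in G3 to 42.4% in G13, and the distal end of SLC4A1AP from 49.6% in the control to 82.4% in G13.

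The other 7 members with the largest median distances on at least 100 reads had between 120 and 355 reads in their shallowest library. SLC12A8, a member of the cation-chloride cotransporter family, had the largest median, 0.277, on at least 176 reads: its most used isoform took 30.1% of the control reads (24.4 to 36.5) and 46.3% of those in G14 (39.6 to 53.2). In SLC37A4, the glucose-6-phosphate carrier of the endoplasmic reticulum, the most used isoform went from 18.9% in the control (15.6 to 22.8) to 43.9% in G13 (38.9 to 49.1) and another from 23.7% to 8.73%. In SLC4A8 the most used isoform took 55.8% of the control reads (46.9 to 64.4) and 74.2% in G14 (69.2 to 78.7). SLC29A2 went from 42.6% (38.3 to 47.0) to 56.1% in G14 (49.8 to 62.3). The median distances of SLC43A1, a neutral amino acid transporter, of SLC25A14, a mitochondrial carrier, and of SLC30A6, a zinc transporter of the Golgi, were 0.214, 0.213 and 0.212, and the intervals of the most used isoform in the control overlapped those in G13 for all 3. The abundant sugar carriers kept 1 form: the most used isoform of SLC2A1 took 97.9% of the control reads, 99.0% in G13 and 99.1% in G14, and that of SLC2A3 94.9%, 93.9% and 94.8%.

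Starts inside the gene made up a larger share of the SLC1A5 reads in the libraries where its level was low. A read was called 5′ short when its isoform started more than 500 bases inside the start of the gene's most used isoform. For SLC1A5 the share of such reads was 9.27% in the control (8.50 to 10.1), with G3 at 6.31%, G5 at 7.71%, G11 at 17.1%, G12 at 24.3%, G13 at 42.4% (40.1 to 44.7) and G14 at 25.9%. In number, such reads were 464 of 5005 in the control, 760 of 1793 in G13 and 522 of 2018 in G14. The share was thus highest in the library with the lowest level. For SLC7A5 the share was 3.34% in the control (90 of 2692 reads) and 13.8% in G13 (9.22 to 20.2, 21 of 152 reads). For SLC20A1 it was 8.29% in the control (5.09 to 13.2) but 46.8% in G14 (37.0 to 56.8). At least 10 percentage points more 5′ short reads than in the control were found for 0 members in G3 (0.184% of genes), 0 in G5 (0.281%), 2 in G11 (1.5% of members, 1.58% of genes), 3 in G12 (2.26%, 2.46% of genes), 8 in G13 (6.02%, 4.5% of genes) and 5 in G14 (3.76%, 3.12% of genes). Besides SLC1A5, SLC7A5 and SLC20A1 these were SLC41A3, SLC25A40, SLC8B1, SLC7A8, SLC43A2 and SLC7A6. Whether such reads come from shorter transcripts or from shortened cDNA was not tested. In SLC19A1 the difference was at the other end: reads that stop more than 500 bases before the end of the most used isoform made up 25.0% in the control (21.2 to 29.2), 15.5% in G3 and 50.7% in G13 (39.1 to 62.3), on 67 reads in G13.

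Proteins that work with or beside solute carriers but carry no SLC symbol were set beside the members. Some of them, such as MPC1, MPC2 and XPR1, are transporters themselves. Of a list of 25 such genes, chosen with earlier results of these data known, 20 reached 5 TPM. Their median log2 ratios had G3 at 0.10, G5 at 0.18, G11 at 0.01, G12 at -0.11, G13 at -0.16 and G14 at -0.12. The medians of all genes were 0.12, 0.14, -0.04, -0.16, -0.22 and -0.10 in the same order. BSG (basigin), the chaperone that brings SLC16A1 and SLC16A3 to the membrane, was at 2507 TPM in the control, and the G libraries lay between 1903 and 2369 TPM. MPC1 and MPC2, which form the mitochondrial pyruvate carrier, were at 33.2 and 129.5 TPM in the control and lower in all 6 G libraries, at 12.4 to 21.5 and 64.3 to 122.8 TPM. Of these 20, at least 2-fold lower than the control were 2 in G3 (5.14% of all genes), 2 in G5 (10.1%) and 1 in G11 (10.4%). None was 2-fold lower in G12 (8.8% of all genes) or G13 (14.6%), and 3 were in G14 (18.9%). None was 2-fold higher outside G14, beside 0.533% (G5) to 1.89% (G3) of all genes. In G14, 1 was 2-fold higher (3.97% of all genes): XPR1, a phosphate exporter, at 164.7 TPM against 75.8. XPR1 was higher than the control in all 6 G libraries, where the phosphate importer SLC20A1 was lower in all 6. SLC20A2, of the same family as SLC20A1, was not: it was at 131.9% of the control in G3 (107.7 to 161.9) and 121.0% in G5 (99.8 to 146.9). From G11 to G14 SLC20A2 was at 60.9% to 76.4%.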

How the data were processed

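Polyadenylated RNA of 7 HUES66 cultures was read as full-length cDNA by PacBio MAS-Seq, with cDNAs joined into 8-fold arrays, per the labels' protocols. Per the file headers, the authors deposited 1 table that gives, per isoform and library, a count of full-length reads and a TPM. The submitters' processing notes name minimap2 2.17 and GRCh38 (hg38); other software, filters and the annotation are not given in the sources used here. The deposited TPM equalled the deposited count scaled to the library total to within 0.00586. All 386982 listed isoforms had a control read, so none that is restricted to G libraries enters any value, and the listed isoforms held 98.1% to 100.0% of a library's reads.

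From these, isoforms were summed by the stem of the Ensembl gene ID, with empty cells as 0, using python 3.11.15, pandas 2.3.3, numpy 2.4.6 and scipy 1.17.1. The members, classes and lists were chosen with earlier results of these data known. Genes with a mean of at least 5 TPM were compared as log2(TPM + 0.5). Ratios have exact (Clopper-Pearson) and shares Wilson 95% intervals, which cover counting error only. A count of 0 allows up to 3 reads, or 0.112 to 0.179 TPM. Length and GC content came from GENCODE 29 for 135 members and 7737 genes, as a mean weighted by TPM, and a quadratic surface of both was removed in 1 alternative. Sequences came from GENCODE 29 transcripts, with IDs matched without their version. SLC25A5, SLC25A6, SLC2A3 and SLC35E2B have near-identical copies or pseudogenes, so their reads are uncertain. Named genes were the 10 most abundant members, the 8 with the largest range, the 4 with the largest median rise and fall, the 8 with the largest usage distance on at least 100 reads, the 3 with the smallest range, the 3 on each side of the threshold and the top of each class. Other genes named were picked with their values known. A gene of the partner list and some sequences are not reported here, and that gene is left out of the list's counts and medians. The ratio counts were tested on simulated data. Alternatives were other pseudocounts, scalings, filters and references, each G library left out, and other thresholds.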

Additional observations from a re-analysis of the deposited data

How the results depend on the processing

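No paired analysis was possible because each group holds 1 library, and for the same reason leaving a library out removes its comparison. The counts of members at least 2-fold from the control were 1, 0, 5, 16, 29 and 22 in G3, G5, G11, G12, G13 and G14. Pseudocounts of 0.1 and 1 TPM left these counts, the medians and the counts of members outside the other 6 libraries within 1.5 times. Scaling by the median of ratios gave medians of -0.05, -0.06, -0.18 and -0.14 in G11, G12, G13 and G14, in place of -0.09, -0.20, -0.34 and -0.25. With reference isoforms alone, 3 members passed in G3, the medians were 0.24 in G3, 0.28 in G5 and 0.03 in G11, and 2 members stood apart in the control and 1 in G14. With a mean of at least 10 TPM, 0 members stood apart in the control. With no filter on level, 2, 4, 16, 35, 53 and 38 members passed, the medians were 0.10 in G3 and 0.04 in G5, and 5, 31 and 35 stood apart in the control, G3 and G13. With the length and GC trend removed, 1, 8, 14 and 11 members passed in G5, G12, G13 and G14, the medians were 0.02, 0.10, 0.08, 0.01, -0.01 and 0.07, and 2, 7, 1, 5 and 1 stood apart in the control, G3, G5, G13 and G14. Against the median of the other 6 libraries, 17, 9, 0, 5 and 9 members were 2-fold away in G3, G5, G11, G12 and G14. At 1.5-fold, 10, 9, 25, 37, 52 and 55 members passed, and 6, 40, 2, 2, 42 and 10 stood apart in the control, G3, G5, G12, G13 and G14. Counts by usage distance were 0, 0, 1, 1, 5 and 6 with isoforms of at least 1 TPM, 0, 0, 0, 0, 6 and 4 at a distance of 0.3, 2, 2, 4, 3, 8 and 7 with at least 200 reads, and 0, 0, 0, 0, 2 and 2 with reference isoforms. The shares of all genes under these settings are not given here. For 5′ short reads, limits of 200 and 1000 bases, added after the data were seen, moved a count by more than 1.5 times only in G11, to 1 member at 1000 bases. The cause of these shifts was not tested. Of 38 named genes, 7 changed the sign of their median over the G libraries when the trend was removed: SLC25A5, SLC25A39, SLC25A1, SLC25A11, SLC26A6, SLC52A2 and SLC43A1. Before the removal none of the 7 had a size above 0.44. The largest value after it was that of SLC25A1, which went from -0.21 to 0.73. SLC43A1, at -0.00, was the 1 gene of the 38 that changed sign with reference isoforms, under the median of ratios or without G12, G13 or G14. SLC25A6, outside the 38, went from -0.64 to 0.02 with the trend removed. Depth limits the low values most: SLC38A10 rests on 26 reads and SLC4A2 on 35 in G13.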

Other observations

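SLC11A2 (DMT1), an importer of iron and manganese, is known for transcripts that end in alternative last exons and differ in an iron-responsive element. Reads that ended in the distal last exon made up 37.2% of its reads in the control (95% Wilson interval 33.2 to 41.5) and between 33.6% (30.3 to 37.0) in G12 and 37.4% (33.8 to 41.0) in G11 among the G libraries. The 7 intervals overlap, on 521 to 856 reads, so that any difference in the use of the 2 ends was not detectable at this depth.

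Some SLC genes below the mean of 5 TPM ordered the libraries as SLC7A5 did at both ends. SLC7A1 (CAT1), an importer of arginine and lysine, was at 5.54 TPM in the control, with G3 at 9.91, G5 at 4.95, G11 at 2.60, G12 at 1.30, G13 at 0.480 and G14 at 1.54. SLC12A9, a relative of the cation-chloride cotransporters, was at 7.12 TPM in the control, 13.5 TPM in G3 and 0.440 TPM in G13. SLC7A11 (xCT), the cystine importer, showed no such spread, with 3.64 TPM in G13, 3.75 in G3 and at most 5.90 TPM, in G5. These 3 genes were picked after their values were seen.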
